A study of Mus musculus with 96 samples.

Results

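The genes described here are 8 genes of vessel sprouting and vessel stability in the mouse heart: the apelin ligand gene Apln and its receptor gene Aplnr, the tip cell gene Esm1, the diaphragm gene Plvap, the angiopoietin genes Angpt1 and Angpt2, and the receptor genes Tek and Tie1. They were picked by name for their roles, with earlier results of these data known, and are 8 of the 50944 genes listed in every file. All 8 passed the filter on low counts in every fit reported.

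New vessels grow from a leading endothelial cell, the tip cell, which responds to vascular endothelial growth factor and is followed by dividing stalk cells. Apelin, a small secreted peptide, acts on a G protein-coupled receptor encoded by Aplnr, and Esm1 encodes endocan, a secreted proteoglycan, both of them known from tip cells. Angiopoietin 1, made mainly by cells around the vessel, activates the receptor tyrosine kinase TIE2 (the product of Tek) and keeps vessels quiet, while angiopoietin 2, released by endothelial cells, can oppose it, and TIE1 is a related receptor that modulates TIE2. Plvap encodes the protein of the diaphragms that span caveolae and fenestrae of permeable vessels, and is low in the normal capillaries of the heart.

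Total RNA was sequenced from male C57Bl/6J mice aged 12 to 14 weeks, either unoperated (Day 0) or with the left anterior descending artery tied permanently and the heart taken on Day 1, 3, 7, 14 or 28 after that. Cardiomyocytes (CM) were collected by slow centrifugation of the digested heart, hematopoietic cells (HC) with beads against CD45, endothelial cells (EC) with beads against CD144 (the product of Cdh5), and fibroblasts (FB) by brief plating. There were 4 libraries in each of 24 groups, 96 in all, and each library was made from RNA of a pool of 3 mice, or of 2 where a sample was missing. The 4 cell types of a day were isolated from the same animals, so libraries of different cell types are not independent, although the fit of all 96 libraries treats them as such. Whether pools of the same number hold the same mice is not given in the sources used here. No sham-operated group was used, so the effect of the operation and that of the infarct cannot be told apart. Each cell type had its own library batch, so cell type and batch cannot be told apart either.

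The 8 genes lie on 6 chromosomes of the mouse genome build mm10 (GRCm38). Apln is at chrX:48025146-48034853 (minus strand), Aplnr at chr2:85136225-85139923 (plus), Esm1 at chr13:113209659-113218098 (plus) and Plvap at chr8:71497765-71511752 (minus). Angpt1 is at chr15:42424723-42676977 (minus), Angpt2 at chr8:18690263-18741562 (minus), Tek at chr4:94739289-94874976 (plus) and Tie1 at chr4:118471191-118490061 (minus). All 8 are protein coding. Angpt1 shares 737 of its 5205 exonic bases with the antisense gene Gm17473, and reads from the pair cannot be told apart without strand. Esm1, Plvap and Angpt2 overlap the genes Gzmk, Gtpbp3 and Mcph1 on the opposite strand, with 0 exonic bases in common.

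RefSeq promoter windows of build GRCm38.p6, from 250 bases before to 50 bases after the start site, were at hand for 4 of the 8 genes. They are shown because Apln and Esm1 changed in EC after infarction while Tek and Tie1 did not pass edgeR's test against Day 0 there. Capitals mark matches, on either strand, to the hypoxia response element core ACGTG, the ETS-type motif AGGAAG, the GATA motif AGATAA or the TATA box TATAAA. The windows run 5′ to 3′ on the strand of the gene.
Apln, chrX:48034804-48035103, minus strand: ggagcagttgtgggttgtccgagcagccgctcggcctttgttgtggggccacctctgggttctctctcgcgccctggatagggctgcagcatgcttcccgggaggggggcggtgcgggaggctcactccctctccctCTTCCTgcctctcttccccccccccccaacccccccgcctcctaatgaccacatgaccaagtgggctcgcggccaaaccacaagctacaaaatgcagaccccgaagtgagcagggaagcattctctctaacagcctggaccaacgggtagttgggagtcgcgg
Esm1, chr13:113209409-113209708, plus strand: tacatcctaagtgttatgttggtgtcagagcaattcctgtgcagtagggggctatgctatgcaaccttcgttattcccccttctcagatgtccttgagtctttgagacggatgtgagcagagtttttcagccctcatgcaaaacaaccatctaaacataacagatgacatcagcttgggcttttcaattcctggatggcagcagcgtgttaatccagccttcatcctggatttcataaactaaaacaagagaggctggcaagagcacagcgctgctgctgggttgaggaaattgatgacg
Tek, chr4:94739039-94739338, plus strand: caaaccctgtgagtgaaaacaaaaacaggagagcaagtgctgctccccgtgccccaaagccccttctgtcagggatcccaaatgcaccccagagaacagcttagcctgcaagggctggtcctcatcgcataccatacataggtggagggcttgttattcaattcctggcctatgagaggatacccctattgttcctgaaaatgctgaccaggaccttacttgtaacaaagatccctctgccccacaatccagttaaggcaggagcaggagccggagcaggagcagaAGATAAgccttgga
Tie1, chr4:118489800-118490099, minus strand: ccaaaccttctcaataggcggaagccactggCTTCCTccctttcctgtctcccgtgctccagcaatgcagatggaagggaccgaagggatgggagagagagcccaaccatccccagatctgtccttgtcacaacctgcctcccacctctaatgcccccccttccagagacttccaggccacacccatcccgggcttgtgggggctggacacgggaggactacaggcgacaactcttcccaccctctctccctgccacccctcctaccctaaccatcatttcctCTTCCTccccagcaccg
The letters AGGAAG stood once in the window of Apln and at 2 places in that of Tie1, each time on the other strand, and in 35.1% of 32544 promoter windows of this length. AGATAA stood once in the window of Tek and in 11.2% of all windows. ACGTG, found in 19.7% of all windows, and TATAAA, found in 13.6%, matched none of these 4 windows, and no searched motif overlapped another in them. The window of Apln held 64.0% G and C, that of Tie1 60.3%, that of Tek 52.0% and that of Esm1 46.3%. Such a match is a run of letters and not a measured binding site.

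CM libraries held 13503024 to 55758471 estimated reads, EC libraries 12445124 to 33868990, FB libraries 2664338 to 36545715 and HC libraries 16214419 to 40395291. Genes of ribosomal RNA took 53.4 to 68.2% of these reads in CM, 11.5 to 28.4% in EC, 2.83 to 35.6% in FB and 9.83 to 32.2% in HC. The 4 EC markers of the study (Flt1, Kdr, Pecam1 and Cdh5) summed to 3376 to 4415 CPM in EC at Day 0, and to 408 to 623 CPM in HC, 238 to 377 CPM in FB and 63.2 to 98 CPM in CM, so endothelial RNA was present in every isolate. CPM are estimated counts of a gene relative to all reads of its library, scaled within a cell type. The EC libraries also held mural cell markers (9 genes, 3101 to 3692 CPM at Day 0) and CM markers (4 genes, 1429 to 2464 CPM). In 8 libraries, among them EC Day 0 replicates 1 and 2 and EC Day 28 replicate 3, an earlier analysis of these files found a shared set of transcripts to be abundant, and each call within a cell type that ended without these libraries is named with its gene. Some libraries of FB at Day 3 and of HC at Day 28 were left out as outliers in the study's own analysis. The sources used here do not say which, and all libraries are kept. In such bulk samples, fewer cells of a type and less RNA per cell cannot be told apart.

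Per length, 7 of the 8 genes had their highest mean level in EC. TPM divides reads by transcript length and can therefore be set side by side between genes. Each TPM value is also a share of its library, and ribosomal RNA took the largest part in CM. Levels in CM are therefore not on the same scale as those of the other cell types. In EC, Tie1 had 19.5 ± 6.83 TPM (mean and SD of 24 libraries over all days), Plvap 16.5 ± 11.7, Tek 13.3 ± 5.02 and Apln 4.46 ± 2.282. Angpt1 (1.66 ± 0.648 TPM), Angpt2 (1.48 ± 0.562 TPM) and Esm1 (1.26 ± 0.842 TPM) were lower, and these 3 did not differ from each other beyond their spread. The spreads of Tie1, Plvap and Tek over all days overlapped as well. Within single EC libraries, however, Tie1 was above Tek in every one, with a lowest ratio of 1.16 (Day 7). Every EC library also had more Tek and Tie1 than Angpt1 per length. The TPM of Aplnr (73.4 ± 38.1 in EC) is not set in this order, because a transcript of 313 bases, Aplnr-202, took a median of 82.6% of it in EC with a median of 527 reads, against 4635 reads for the full-length Aplnr-201, whose own median was 11.9 TPM.

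**Figure D1:**
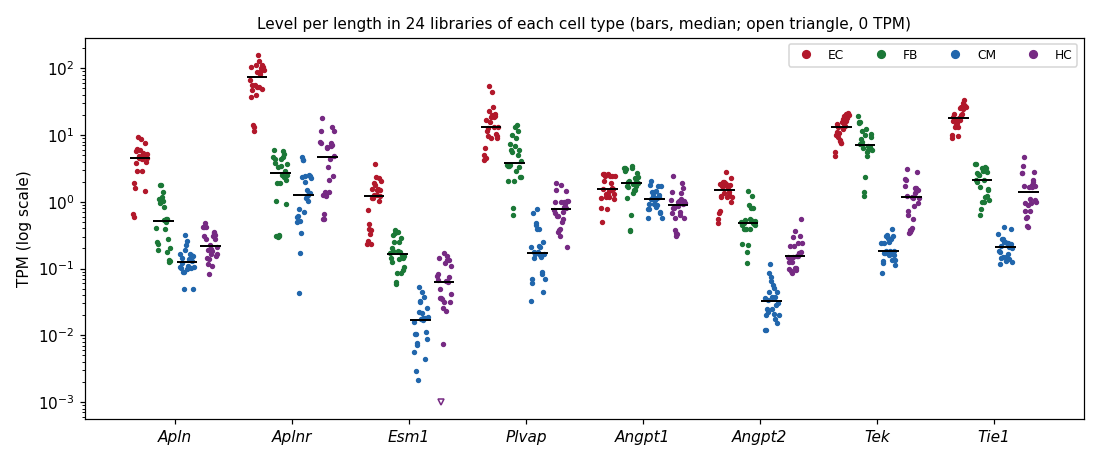
Level of each gene in TPM (log axis) in the 24 libraries of each cell type, 1 point a library in order of day, with a bar at the median and an open triangle for 1 library at 0 TPM. Medians in EC lie above those of the other cell types for 7 genes. Those of Angpt1 (1.54 in EC, 1.94 in FB, 1.09 in CM, 0.897 in HC) lie close together on this scale, where the larger share of ribosomal RNA in CM lowers the values of CM.

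For Apln, the median of 4.6 TPM in EC stood above 0.51 in FB, 0.215 in HC and 0.124 in CM. Of the 7 genes with their highest level in EC, Tek had a median of 7.06 TPM in FB (1.22 to 19.1) against 13.4 in EC (4.84 to 21.7), and these ranges overlap. Angpt1 had a higher median in FB than in EC. Tie1, the gene of the receptor related to TIE2, had 0.638 to 3.69 TPM in FB and 9.16 to 33 in EC, with no overlap. In the fit of all 96 libraries, 7 of the 8 genes were called higher in EC than in the mean of the other cell types, where 71.2% of all genes tested were called, so that most genes differ between isolates at this depth. The differences of those 7 ran from 2.72 (Tek) to 4.15 (Aplnr) on the log2 scale, and that of Angpt1 was -0.05 ± 0.09 (adjusted p = 0.668).

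In EC the genes followed different courses after infarction: Plvap, Angpt2 and Apln rose early, Aplnr and Esm1 fell at Day 1 and were above Day 0 at Day 3 (Aplnr in CPM but not on the TPM scale), Angpt1 was lower at Day 28 (in CPM but not on the TPM scale), and Tek and Tie1 passed edgeR's test against Day 0 on no day. At Day 1, 3 genes were called higher and 2 lower, where 19.0% of all genes tested were called. At Day 3, 5 were called higher, beside 45.5% of all genes. The counts were 3 higher at Day 7 beside 37.6%, 2 higher at Day 14 beside 27.0%, and 3 higher and 1 lower at Day 28 beside 33.7%. The shares of all genes called are high, so the counts alone do not set these 8 genes apart, and the values of each are given next.

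**Figure D2:**
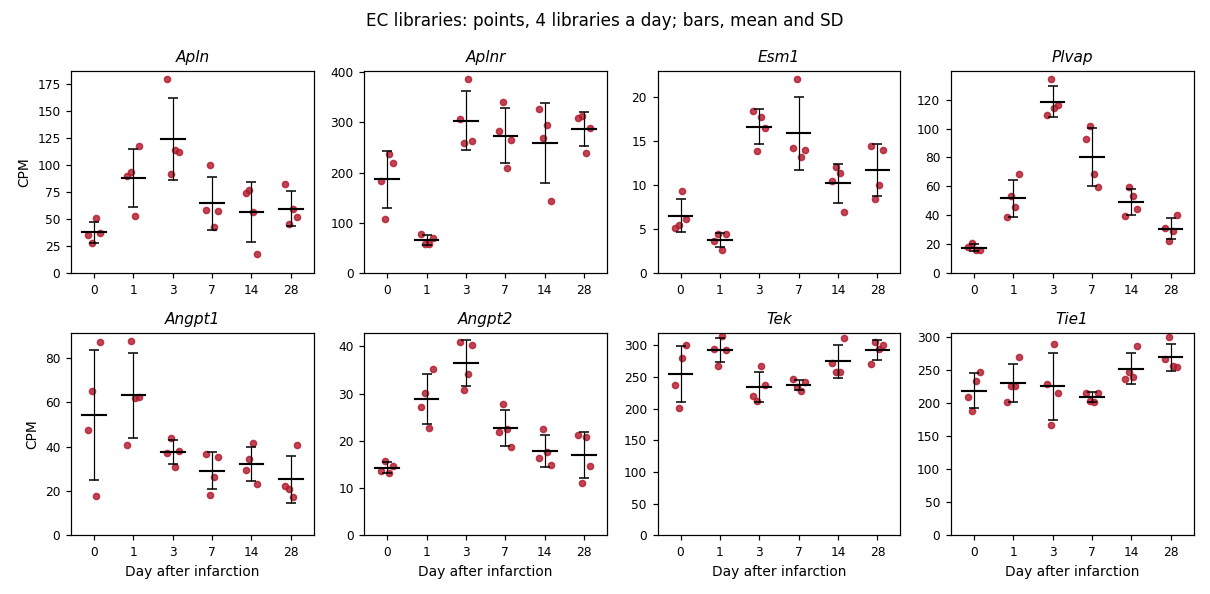
CPM of the 8 genes in EC by day after infarction, each point 1 of 4 libraries, with the mean and its SD. The 4 Day 3 libraries of Plvap lie between 109.6 and 134 CPM, above all 4 Day 0 libraries (15.8 to 20.8), and those of Aplnr at Day 1 (57.7 to 78.4) lie below all of Day 0 (107 to 236).

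Apln, the ligand, had 35.6, 28, 51.5 and 37.1 CPM in the 4 EC libraries of Day 0. Its values were 89.98, 93.8, 52.7 and 118 CPM at Day 1 and 179, 92.4, 114 and 112 CPM at Day 3. Every library of Day 1 and Day 3 was above all of Day 0, while those of Day 7 (43.2 to 100.1 CPM), Day 14 (17.8 to 77.6) and Day 28 (45.8 to 82.4) overlapped them. The log2 fold change was 1.22 ± 0.36 (adjusted p = 0.0245) at Day 1 and 1.71 ± 0.37 (adjusted p = 0.000848) at Day 3. Day 3 kept its call without each library in turn, whereas the Day 1 value was 1.19 (adjusted p = 0.0667) without EC Day 0 replicate 1, 1.09 (adjusted p = 0.0812) without EC Day 0 replicate 2 and 1.06 (adjusted p = 0.0795) without EC Day 1 replicate 4. It was 1.00 (adjusted p = 0.276) without the 8 libraries of the shared set and 1.23 (adjusted p = 0.058) with no filter on low counts. At Day 14, replicate 4 held 17.8 CPM, the lowest Apln level of all 24 EC libraries.

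Angpt2, which can oppose TIE2 signalling, had 13.6, 15.7, 13.2 and 14.8 CPM at Day 0 in EC. It had 27.1, 30.2, 22.8 and 35.2 CPM at Day 1, 40.8, 30.8, 34.2 and 40.2 CPM at Day 3 and 21.8, 27.9, 22.5 and 18.8 CPM at Day 7. All libraries of these 3 days were above those of Day 0, and the Day 14 (14.8 to 22.5 CPM) and Day 28 (11.2 to 21.3 CPM) libraries overlapped them. The log2 fold changes were 1.01 ± 0.18 (adjusted p = 0.000503), 1.35 ± 0.18 (adjusted p = 3.51e-06) and 0.67 ± 0.18 (adjusted p = 0.00584) on the 3 days, and none lost its call without any 1 library.

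Angpt1, the activating ligand, varied more between EC libraries, with 47.7, 65.2, 17.7 and 87.2 CPM at Day 0. On Day 28 it had 22.2, 21, 17.4 and 40.9 CPM, a range that overlaps Day 0, and a log2 fold change of -1.10 ± 0.36 (adjusted p = 0.024). That value was -0.98 (adjusted p = 0.0691) without EC Day 0 replicate 2, -0.76 (adjusted p = 0.109) without EC Day 0 replicate 4, -1.04 (adjusted p = 0.0626) without EC Day 28 replicate 1, -1.02 (adjusted p = 0.0664) without EC Day 28 replicate 2 and -0.95 (adjusted p = 0.0722) without EC Day 28 replicate 3, and on the TPM scale its sign turned (0.26 (adjusted p = 0.269)). It was -0.90 (adjusted p = 0.213) without the shared-set libraries and -1.08 (adjusted p = 0.0686) with no filter. Mural cell markers, genes of the cells known to make angiopoietin 1, summed to 3101 to 3692 CPM at Day 0 and 1606 to 1869 CPM at Day 28 in the same libraries, with none of the 9 at 0, and their part in the value was not tested. Per length, the ratio of Angpt2 to Angpt1 in EC was 0.686 ± 0.469 at Day 0, 0.736 ± 0.307 at Day 1 and 1.56 ± 0.166 at Day 3 (mean and SD of 4 libraries), with overlap between Day 0 (0.28 to 1.36) and Day 3 (1.34 to 1.71).

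Aplnr, the apelin receptor gene, had 183, 107, 236 and 219 CPM at Day 0 in EC. It fell to 78.4, 57.7, 58.5 and 69.5 CPM at Day 1, all below Day 0, with a log2 fold change of -1.50 ± 0.24 (adjusted p = 0.000184). At Day 3 it had 306, 258, 386 and 262 CPM, all above Day 0, with a log2 fold change of 0.70 ± 0.23 (adjusted p = 0.0176). The Day 3 value against Day 0 was 0.52 (adjusted p = 0.0543) without EC Day 0 replicate 2 and 0.57 (adjusted p = 0.0678) without EC Day 3 replicate 3, and it turned sign on the TPM scale (-0.04 (adjusted p = 0.973)), which for this gene rests on the short transcript. Without the shared-set libraries it was 0.41 (adjusted p = 0.219). Against Day 1, Day 3 was higher by 2.20 ± 0.24 (adjusted p = 1.18e-06), a call that no library left out and no other setting ended. Libraries of Day 28 held 309, 313, 239 and 287 CPM, a log2 fold change of 0.62 ± 0.23 (adjusted p = 0.043) that lost its call in 9 of 24 fits that left out 1 library each. This call held with DESeq2 and with RLE size factors and ended under the other 4 settings, at 0.41 (adjusted p = 0.295) without the shared set, 0.63 (adjusted p = 0.0961) with no filter, 0.69 (adjusted p = 0.126) with limma on TPM and 0.63 (adjusted p = 0.0526) with the replicate block. So the ligand gene rose at Day 1 while the receptor gene fell, and both were above Day 0 at Day 3 in CPM.

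Tek, the TIE2 gene, had 237, 201, 280.5 and 301 CPM at Day 0 in EC and 220.5, 212, 267 and 238 CPM at Day 3, and its log2 fold changes against Day 0 ran from -0.12 at Day 3 to 0.20 at Day 28. Between Day 1 (295, 268, 314 and 293 CPM) and Day 3 it fell by 0.32 ± 0.10 on the log2 scale (adjusted p = 0.0258), a call that ended in 6 of 24 fits that left out 1 library each, every one of them a library of Day 1 or Day 3. Tie1 had 209, 187, 233 and 247 CPM at Day 0 and 229, 168, 289.9 and 216 CPM at Day 3, and its largest difference was 0.30 ± 0.12 (adjusted p = 0.0667) at Day 28, where all 4 libraries (266, 299.8, 256 and 255 CPM) lay above Day 0. In EC no Tek library lay outside 201 to 314 CPM on any day and no Tie1 library outside 168 to 299.8 CPM. Limma on log2(TPM + 1) gave other calls on the late days. For Tek its log2 fold changes were 1.00 (adjusted p = 0.00031) at Day 7, 1.03 (adjusted p = 0.000284) at Day 14 and 1.299 (adjusted p = 1.41e-05) at Day 28. For Tie1 they were 0.67 (adjusted p = 0.0131), 0.81 (adjusted p = 0.00368) and 1.08 (adjusted p = 0.000217). It called 60.6%, 62.7% and 73.2% of all genes on these days and moved their median by 0.39, 0.42 and 0.51. The ratio of Tie1 to Tek per length stayed between means of 1.34 ± 0.0806 (Day 1) and 1.77 ± 0.191 (Day 0).

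Esm1, the endocan gene, had 5.16, 5.53, 9.33 and 6.19 CPM in EC at Day 0. Day 1 libraries held 3.63, 4.42, 2.7 and 4.48 CPM, all below Day 0, and the log2 fold change was -0.78 ± 0.23 (adjusted p = 0.022). This value was -0.57 (adjusted p = 0.074) without EC Day 0 replicate 3, -0.76 (adjusted p = 0.0523) without EC Day 1 replicate 1 and -0.66 (adjusted p = 0.0678) without EC Day 1 replicate 3, and on the TPM scale it was -0.09 (adjusted p = 0.785). At Day 3 it had 18.5, 13.9, 17.7 and 16.5 CPM and at Day 7 14.3, 22.1, 13.2 and 14.1 CPM, all above Day 0. The log2 fold changes of 1.34 ± 0.22 (adjusted p = 5.27e-05) and 1.28 ± 0.22 (adjusted p = 0.000168) kept their calls without each library in turn. Day 14 (10.5, 12, 11.4 and 6.96 CPM) and Day 28 (14.5, 8.44, 10.01 and 14 CPM) overlapped Day 0, with log2 fold changes of 0.64 ± 0.22 (adjusted p = 0.038) and 0.84 ± 0.22 (adjusted p = 0.00645), and without the 8 libraries of the shared set both calls ended, at 0.40 (adjusted p = 0.36) and 0.67 (adjusted p = 0.113). The Day 14 call also ended with the replicate block (0.63 (adjusted p = 0.0613)) and in 6 of 24 fits that left out 1 library each.

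Plvap was called higher on all 5 later days in EC. It had 18, 20.8, 15.8 and 15.9 CPM at Day 0, 39.1, 53.6, 45.8 and 68.7 CPM at Day 1 and 109.6, 134, 114 and 116 CPM at Day 3. Values were then 92.4, 102, 68.3 and 59.5 CPM at Day 7, 39.3, 59.9, 53.7 and 44.5 CPM at Day 14 and 31.1, 22.6, 29.3 and 40.6 CPM at Day 28. No library of any later day overlapped Day 0. The log2 fold change went from 1.56 ± 0.20 (adjusted p = 1.38e-05) at Day 1 and 2.75 at Day 3 to 2.19 ± 0.20 (adjusted p = 8.64e-08) at Day 7, 1.49 ± 0.20 (adjusted p = 4.15e-05) at Day 14 and 0.81 ± 0.20 (adjusted p = 0.00304) at Day 28, and each call held without any 1 library and under every other setting.

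Between neighbouring days in EC, 3 genes were called higher (Aplnr, Esm1 and Plvap) and 1 lower (Tek) from Day 1 to Day 3, beside 22.5% of all genes. Esm1 rose by 2.13 ± 0.23 (adjusted p = 7.81e-07) on the log2 scale and Plvap by 1.19 ± 0.19 (adjusted p = 0.000108). From Day 3 to Day 7, 2 genes fell, beside 23.2% of all genes: Angpt2 by 0.68 ± 0.18 (adjusted p = 0.00729) and Plvap by 0.56 ± 0.19 (adjusted p = 0.0376). The call of Plvap ended in 11 of 24 fits that left out 1 library each, and on the TPM scale both differences turned sign (0.16 (adjusted p = 0.361) for Angpt2 and 0.29 (adjusted p = 0.493) for Plvap). With edgeR, 0 of the 8 were called from Day 7 to Day 14, beside 2.29% of all genes, and 0 from Day 14 to Day 28, beside 0.998%. At an unadjusted p under 0.05, 3 and 1 of the 8 passed in these steps, DESeq2 called 1 and 1, and limma on TPM called 0 and 0.

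Other cell markers moved in the EC libraries on the same days. At Day 3 the 5 genes of dividing cells summed to 572 to 662 CPM against 57.9 to 104 CPM at Day 0. The 9 mural markers summed to 1267 to 1524 CPM against 3101 to 3692, the 4 CM markers to 654 to 1121 against 1429 to 2464, and the 4 EC markers to 3071 to 3656 against 3376 to 4415. Lymphatic endothelial markers (4 genes) summed to 61.2 to 74.3 CPM at Day 0, 105 to 156 at Day 3 and 197 to 269 at Day 7. FB markers (4 genes) had 74 to 98.8, 121 to 169 and 161 to 328 CPM on these days. The 4 HC markers stayed at or below 6.43 CPM up to Day 7. No gene of these lists was at 0 in EC on those days. Beside the EC markers, Plvap was 0.357 to 0.616% of their sum at Day 0 and 3.12 to 4.36% at Day 3, and Apln 0.828 to 1.17% and 3.01 to 5.3%, so both were higher at Day 3 on that scale too, with no overlap. The part of the other markers in the EC values was not tested.

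**Figure D3:**
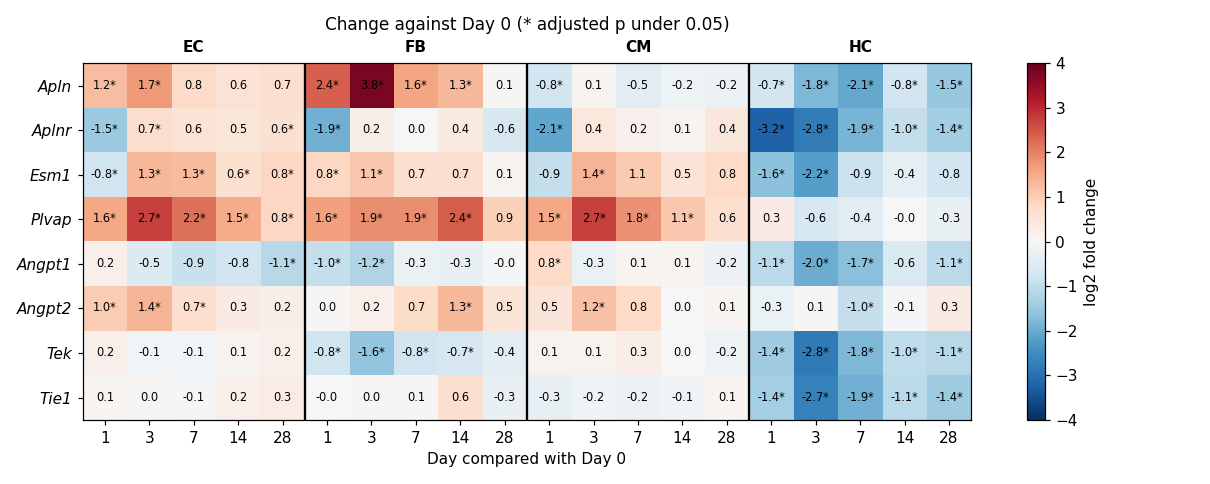
Log2 fold change of each gene on each later day against Day 0 in EC, FB, CM and HC, with a star where the adjusted p was under 0.05. Plvap is higher at Day 1 to Day 14 in EC, FB (at Day 3 not on the TPM scale) and CM, Aplnr is lower at Day 1 in all 4 cell types, and Tek and Tie1 are lower on every day in HC. The stars are edgeR's. Among those that ended on the TPM scale are Aplnr in CM at Day 1, Tek in HC at Day 14 and Day 28 and Tie1 in HC at Day 14.

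In FB, Apln and Plvap rose while Tek and Angpt1 fell. At Day 1, 3 genes were called higher and 3 lower, beside 17.9% of all genes. At Day 3 the count was 3 higher and 2 lower, beside 49.1%, at Day 7 2 higher and 1 lower, beside 14.3%, and at Day 14 3 higher and 1 lower, beside 10.9%. At Day 28, edgeR called 0 of the 8, beside 3.49% of all genes, with 3 of 8 at an unadjusted p under 0.05, 0 called by DESeq2 and 0 by limma on TPM.

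**Figure D4:**
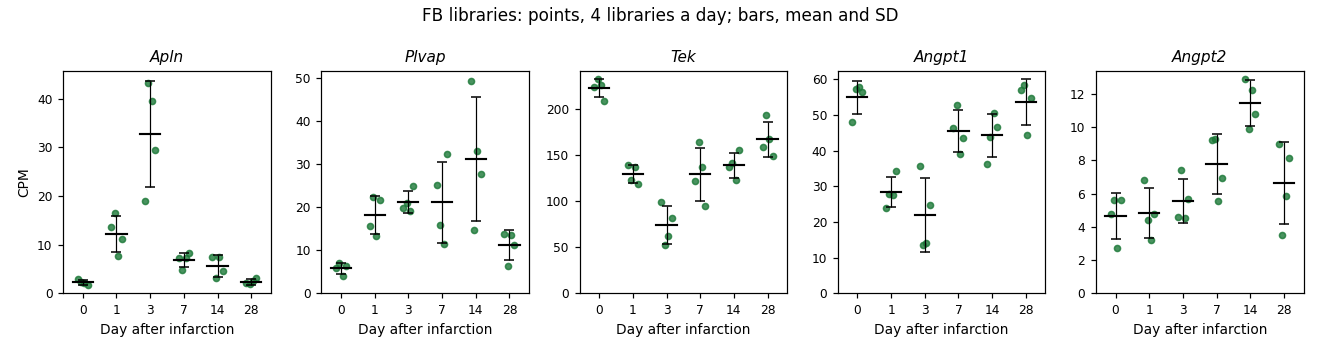
CPM of Apln, Plvap, Tek, Angpt1 and Angpt2 in FB by day, each point 1 of 4 libraries, with the mean and its SD. Apln rises to 19.1 to 43.3 CPM at Day 3 from 1.76 to 2.98, and Tek falls to 52.7 to 98.5 CPM from 208 to 232.

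Apln had 2.98, 2.44, 2.11 and 1.76 CPM in FB at Day 0. It had 13.6, 16.4, 7.72 and 11.2 CPM at Day 1 and 19.1, 43.3, 39.4 and 29.4 CPM at Day 3. Libraries of Day 7 (4.86 to 8.21 CPM) and Day 14 (3.11 to 7.49 CPM) also lay above all of Day 0, and Day 28 (1.86 to 3.24 CPM) overlapped it. Log2 fold changes were 2.40 ± 0.30 (adjusted p = 8.52e-06) at Day 1, 3.77 ± 0.32 (adjusted p = 1e-08) at Day 3, 1.58 ± 0.30 (adjusted p = 0.000634) at Day 7 and 1.28 ± 0.30 (adjusted p = 0.00568) at Day 14, and none lost its call without any 1 library. With limma on the TPM scale the calls of Day 7 (0.31 (adjusted p = 0.17)) and Day 14 (0.11 (adjusted p = 0.468)) ended. Beside the EC markers of the same libraries, Apln was 0.591 to 1.01% of their sum at Day 0 and 8.24 to 26.2% at Day 3, while in EC it was 3.01 to 5.3% at Day 3. Of the 4 FB libraries of Day 3, replicates 2 and 3 belong to the shared set, and without the shared-set libraries the Day 3 value was 3.39 (adjusted p = 1.12e-07).

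Tek had 223, 232, 226 and 208 CPM in FB at Day 0. It fell to 139, 123, 136 and 118 CPM at Day 1 and 98.5, 52.7, 61.7 and 81.4 CPM at Day 3, was 121, 163, 136 and 95 CPM at Day 7, 136, 141, 123 and 155 CPM at Day 14 and 158, 193, 167 and 149 CPM at Day 28. All 20 later libraries lay below all 4 of Day 0. Log2 fold changes were -0.78 ± 0.16 (adjusted p = 0.00134), -1.57 ± 0.17 (adjusted p = 1.77e-07), -0.78 ± 0.16 (adjusted p = 0.00133) and -0.68 ± 0.16 (adjusted p = 0.00592) from Day 1 to Day 14, each held without any 1 library, and -0.41 ± 0.16 (adjusted p = 0.158) at Day 28. Tie1 in the same libraries had 16 to 27.8 CPM at Day 0 and 17.3 to 28.3 CPM at Day 3, with overlap on every day and no call. Both Day 3 libraries with the least Tek, replicates 2 and 3, were shallow, with 2664338 and 3508820 estimated reads. Ribosomal RNA took 35.6% and 35.2% of them. This compares with 8.73% and 19.6% in replicates 1 and 4. Their TMM factors were 0.556 and 0.564, against 1.01 and 0.784. Without the shared set, which holds both, the Day 3 value of Tek was -1.28 (adjusted p = 3.38e-06) and that of Angpt1 -0.83 (adjusted p = 0.000942). On the TPM scale the Tek calls of Day 1 (-0.83 (adjusted p = 0.195)) and Day 7 (-1.004 (adjusted p = 0.0699)) ended.

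The EC markers in FB set Tek apart from the other endothelial receptors. At Day 0, Tek was 61.4 to 94.7% of the EC marker sum in FB against 5.94 to 7.29% in EC. For Tie1 the same shares were 6.48 to 7.65% and 5.28 to 5.96%, and for Aplnr 3.56 to 4.95% and 3.17 to 5.35%. Tek in FB thus stood far above its share in EC, whereas Tie1 and Aplnr stood near theirs. The share of Tek in FB was 29.9 to 42.6% at Day 3. FB markers (4 genes) summed to 1864 to 1984 CPM at Day 0 and 746 to 1237 at Day 3, the endocardial markers (4 genes) to 111 to 135 and 93.5 to 99.7, the mural markers to 812 to 971 and 715 to 922, and the dividing cell genes to 15.8 to 23.2 and 180.4 to 494. In the same order of days, CM markers (4 genes) summed to 22.5 to 44 and 12.2 to 520.4 CPM, HC markers (4 genes) to 1.68 to 2.24 and 1.41 to 11.5, and lymphatic markers (4 genes) to 96.9 to 101 and 148 to 204, with none of these genes at 0. The part of any of these in the change of Tek was not tested.

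**Figure D5:**
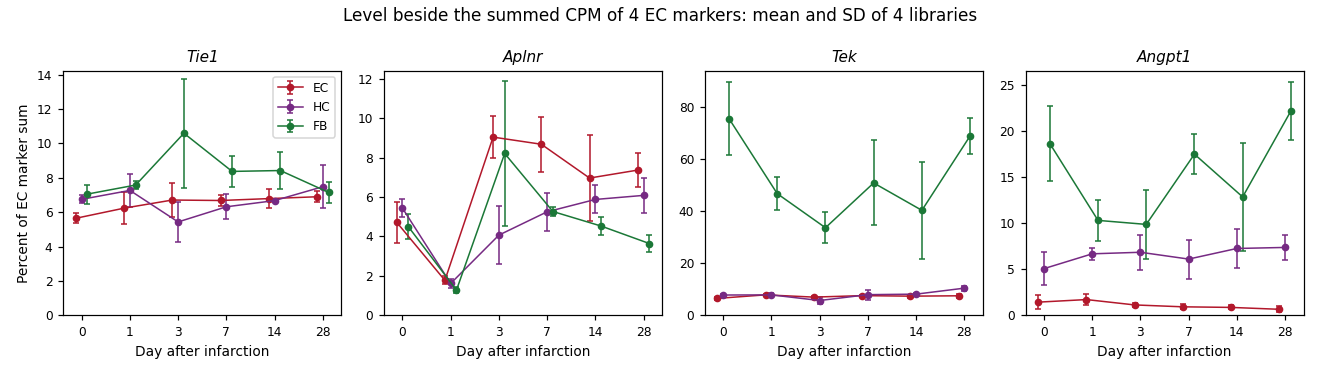
Level of Tie1, Aplnr, Tek and Angpt1 as a percentage of the summed CPM of 4 EC markers in the same library, in EC, HC and FB by day (mean and SD of 4 libraries). Mean shares of Tie1 lie between 5.43% and 10.6% in all 3 cell types, Aplnr dips at Day 1 in all 3, and Tek and Angpt1 in FB stand above EC and HC.

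Angpt1 had 48, 57.3, 57.9 and 56.3 CPM in FB at Day 0, 23.9, 27.8, 27.6 and 34.1 CPM at Day 1 and 35.6, 13.5, 14.2 and 24.7 CPM at Day 3. Libraries of both days lay below all of Day 0, and those of Day 7 to Day 28 (38.91 to 52.9, 36.2 to 50.4 and 44.3 to 58.3 CPM) overlapped it. It fell by 0.95 ± 0.20 (adjusted p = 0.0014) at Day 1 and by 1.21 ± 0.20 (adjusted p = 6.19e-05) at Day 3 on the log2 scale. With limma on the TPM scale the Day 1 call ended (-0.66 (adjusted p = 0.126)) and that of Day 3 held (-1.23 (adjusted p = 9.01e-05)). At Day 3, limma called 75.4% of all genes there, with a median log2 fold change of -0.70. Angpt2 took another course, with 2.71 to 5.59 CPM at Day 0, overlap with it at Day 1, Day 3, Day 7 and Day 28, and 12.9, 9.87, 12.2 and 10.8 CPM at Day 14, all above Day 0 (log2 fold change 1.29 ± 0.27 (adjusted p = 0.0024)). This call of Angpt2 ended with limma on the TPM scale (0.37 (adjusted p = 0.0635)). The ratio of Angpt2 to Angpt1 in FB, per length, was 0.135 ± 0.0421 at Day 0, 0.34 ± 0.128 at Day 3 and 0.473 ± 0.0919 at Day 14.

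Plvap had 5.99, 7.07, 4.12 and 6.26 CPM in FB at Day 0. It had 19.9, 20.9, 19.2 and 25 CPM at Day 3 and 49.4, 14.7, 33 and 27.6 CPM at Day 14, and all libraries of Day 1 to Day 14 lay above Day 0. Log2 fold changes were 1.64 ± 0.33 (adjusted p = 0.00126), 1.87 ± 0.35 (adjusted p = 0.000168), 1.85 ± 0.33 (adjusted p = 0.00038) and 2.41 ± 0.34 (adjusted p = 3.35e-05) from Day 1 to Day 14, although at Day 3 the TPM scale turned the sign (-0.55 (adjusted p = 0.215)) where it moved the median of all genes to -0.70. The calls of the other 3 days also ended on that scale, with the same sign. EC markers summed to 238 to 377 CPM at Day 0, 165 to 272 at Day 3 and 207 to 464 at Day 14, and Plvap was 1.73 to 2.1%, 8.61 to 12.7% and 5.96 to 10.9% of that sum. Esm1 stayed at or below 2.43 CPM in every FB library and was called higher at Day 1 (0.84, adjusted p = 0.0437, ended in 13 of 24 fits without 1 library) and Day 3 (1.08, adjusted p = 0.00683), where on the TPM scale it was -0.02 (adjusted p = 0.752).

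Aplnr fell at Day 1 in FB, CM and HC as it did in EC. In FB it had 14.3, 18.7, 11 and 10.6 CPM at Day 0 and 4.48, 3.31, 2.88 and 3.65 CPM at Day 1 (log2 fold change -1.93 ± 0.26 (adjusted p = 1.53e-05)). In CM it had 4.04, 4.4, 2.6 and 3.21 and 0.779, 0.554, 0.717 and 1.4 CPM (-2.07 ± 0.31 (adjusted p = 7.69e-05)), and in HC 22.4, 29.7, 31.8 and 31.4 and 3.3, 3.41, 3.2 and 2.46 CPM (-3.22 ± 0.25 (adjusted p = 1.28e-09)). No Day 1 library overlapped Day 0 in any of the 4 cell types, and none of the 4 calls ended when a single library was left out. With limma on the TPM scale the call in CM ended (-0.37 (adjusted p = 0.535)), and those in EC, FB and HC held. As a share of the EC markers of the same library, Aplnr at Day 0 was 3.17 to 5.35% in EC, 3.56 to 4.95% in FB, 3.52 to 5.95% in CM and 5.04 to 6.06% in HC. At Day 1 these shares were 1.59 to 2%, 1.11 to 1.47%, 0.893 to 1.9% and 1.45 to 1.91%. At Day 0 the range of EC overlapped that of each other cell type, at Day 1 it overlapped those of CM and HC and lay above that of FB. The 4 comparisons come from different libraries of the same animals.

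In CM, 2 genes were called higher and 2 lower at Day 1, beside 11.4% of all genes, 3 higher at Day 3, beside 30.5%, 1 at Day 7, beside 13.3%, and 1 at Day 14, beside 13.8%. At Day 28, edgeR called 0 of the 8, beside 3.58% of all genes, with 0 of 8 at an unadjusted p under 0.05, 0 called by DESeq2 and 0 by limma on TPM. Plvap had 0.717, 0.402, 0.66 and 0.67 CPM at Day 0, 1.49, 1.66, 1.67 and 2.29 CPM at Day 1 and 3.27, 4.63, 4.04 and 4.41 CPM at Day 3, and all libraries of Day 1 to Day 14 were above Day 0. Its log2 fold changes of 1.54 ± 0.36 (adjusted p = 0.00518), 2.75 ± 0.35 (adjusted p = 1.98e-06) and 1.84 ± 0.35 (adjusted p = 0.000787) at Day 1, Day 3 and Day 7 held without any 1 library, and that of Day 14 (1.08 ± 0.36 (adjusted p = 0.0488)) ended in 18 of 24 such fits. On the TPM scale the calls of Day 1, Day 7 and Day 14 ended, with the same sign. EC markers in CM summed to 63.2 to 98 CPM at Day 0 and 66.4 to 87.2 at Day 3, and Plvap was 0.544 to 1.06% and 3.75 to 6.09% of that sum. Other markers were higher at Day 3 in the same libraries. HC markers (4 genes) summed to 5.14 to 7.21 CPM against 0.196 to 0.587, platelet markers (5 genes) to 5.09 to 9.52 against 0.213 to 0.623, dividing cell genes to 12.7 to 20.9 against 1.01 to 1.37 and FB markers to 6.13 to 8.62 against 1.94 to 4.11. At Day 0, 1 HC and 2 platelet markers were at 0. The part of these markers in the rise of Plvap was not tested.

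Per length, Angpt1 had the highest median of the 8 genes in CM apart from Aplnr, whose TPM rests on its short transcript there too. Angpt1 had 21.4, 19, 26 and 22.3 CPM at Day 0 and 40.9, 44.8, 31.8 and 35 CPM at Day 1, all above Day 0 (log2 fold change 0.78 ± 0.18 (adjusted p = 0.00508)), and overlapped Day 0 from Day 3 on. Angpt1 was 21.9 to 35.3% of the EC marker sum in CM at Day 0, against 0.402 to 2.11% in EC, and the mural markers in CM summed to 163 to 215 CPM at Day 0 and 142 to 172 CPM at Day 1. So in CPM, Angpt1 was higher at Day 1 in CM and lower in FB and HC on the same day. With limma on the TPM scale each of these calls ended, with the same sign. The values were 0.54 (adjusted p = 0.134) in CM, -0.66 (adjusted p = 0.126) in FB and -0.51 (adjusted p = 0.0838) in HC. Angpt2 at Day 3 (1.04, 1.11, 0.689 and 0.778 CPM against 0.62, 0.308, 0.477 and 0.239) had a log2 fold change of 1.17 ± 0.32 (adjusted p = 0.00693). Esm1 at Day 3 (0.273 to 0.509 CPM against 0.0947 to 0.196) had one of 1.37 ± 0.49 (adjusted p = 0.0376), which ended in 5 of 24 fits without 1 library, and Apln at Day 1 (0.907 to 2.03 CPM against 2.49 to 3.1) one of -0.76 ± 0.25 (adjusted p = 0.0476), which ended in 20 of them.

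In HC every call was a fall, and markers of endothelial, mural and muscle cells were lower in the same libraries. The counts were 6 lower at Day 1 beside 41.9% of all genes, 6 at Day 3 beside 46.4%, 6 at Day 7 beside 28.0%, 4 at Day 14 beside 12.9% and 5 at Day 28 beside 21.8%. EC markers in HC summed to 408 to 623 CPM at Day 0, 129 to 234 at Day 1, 99.4 to 108 at Day 3, 124 to 165 at Day 7, 226 to 315 at Day 14 and 148 to 209 at Day 28. The mural markers went from 462 to 670.1 CPM at Day 0 to 73.9 to 93.3 at Day 3 and the CM markers from 1612 to 2637 to 215 to 476, with none of these genes at 0. Their part in the falls was not tested beyond the shares given next.

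Tie1 had 27.5, 39.6, 36.5 and 40.1 CPM in HC at Day 0 and 6.26, 5.77, 6.25 and 4.02 CPM at Day 3 (log2 fold change -2.69 ± 0.19 (adjusted p = 4.9e-10)), and Tek 35.2, 43, 38.7 and 48.9 and 6.26, 6.87, 6.35 and 3.94 CPM (-2.83 ± 0.24 (adjusted p = 5.25e-09)). Both were called lower on all 5 days, with every later library below Day 0 and no call lost without any 1 library. On the TPM scale limma ended the Day 14 calls of Tek (-0.37 (adjusted p = 0.34)) and Tie1 (-0.58 (adjusted p = 0.155)). It also ended the Day 28 call of Tek (-0.37 (adjusted p = 0.252)). Set against the EC markers of the same library, Tie1 was 6.43 to 6.95% at Day 0 and 6.1 to 8.11%, 3.73 to 6.26%, 5.67 to 7.18%, 6.62 to 6.75% and 6.6 to 9.3% on the later days. Tek was 7.36 to 8.64% at Day 0 and 6.83 to 8.7%, 3.65 to 6.92%, 6.22 to 10.5%, 7.66 to 8.79% and 9.19 to 11.7% on the later days. At Day 3 the shares of both genes lay below all of Day 0, and at Day 28 that of Tek lay above all of Day 0. In EC at Day 0 the shares were 5.28 to 5.96% for Tie1 and 5.94 to 7.29% for Tek.

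In CPM, Apln, Aplnr and Angpt1 in HC followed the same direction. As a share of the EC markers, Aplnr fell at Day 1, while Apln and Angpt1 overlapped Day 0 on every later day. The share of Apln was 0.957 to 1.26% at Day 0, 1.15 to 2.13% at Day 3 and 0.679 to 1.23% at Day 7. That of Angpt1 was 2.68 to 6.71% at Day 0 and 5.09 to 9.16% at Day 3. Apln had 4.83, 5.62, 6.61 and 5.97 CPM at Day 0 and 1.31, 1.52, 1.03 and 1.7 CPM at Day 7 (log2 fold change -2.05 ± 0.26 (adjusted p = 3.51e-06)), and was called lower on all 5 days. Of these calls, that of Day 1 (-0.74) ended in 4 and that of Day 14 (-0.78) in 11 of 24 fits without 1 library. Aplnr was lower on all 5 days, from -3.22 ± 0.25 (adjusted p = 1.28e-09) at Day 1 to -0.97 ± 0.22 (adjusted p = 0.0049) at Day 14. Angpt1 had 19.4, 35.7, 14.1 and 41.8 CPM at Day 0 and 5.08, 7.6, 5.84 and 9.87 CPM at Day 3 (-1.97 ± 0.31 (adjusted p = 1.52e-05)), and was lower on every day but Day 14 (-0.62 ± 0.30 (adjusted p = 0.199)). Its Day 28 call ended without the shared-set libraries (-0.82 (adjusted p = 0.19)). With limma on the TPM scale Angpt1 kept only its Day 3 call (-0.66 (adjusted p = 0.0202)). It had -0.51 (adjusted p = 0.0838) at Day 1, -0.37 (adjusted p = 0.164) at Day 7 and -0.20 (adjusted p = 0.563) at Day 28. The Apln calls of Day 1 and Day 14 and the Aplnr calls of Day 14 and Day 28 ended there too.

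Plvap and Angpt2 differed from the rest in HC. Plvap had 1.9, 2.6, 2.35 and 3.97 CPM at Day 0, 3.43, 4.26, 3.14 and 2.71 CPM at Day 1 and 1.4, 1.36, 2.25 and 2 CPM at Day 3, overlapped Day 0 on every day and was not called. As a share of EC markers it was 0.447 to 0.636% at Day 0, 1.52 to 2.11% at Day 1 and 1.37 to 2.14% at Day 3, with no overlap between Day 0 and either later day. Angpt2 was called lower only at Day 7 (0.751 to 1.54 CPM against 1.36 to 2.64, log2 fold change -0.96 ± 0.29 (adjusted p = 0.0162)), and this value was -0.81 (adjusted p = 0.0658) without HC Day 0 replicate 4 and -0.82 (adjusted p = 0.0598) without HC Day 7 replicate 1. Its share of the EC marker sum in HC was 0.259 to 0.467% at Day 0 and 1.59 to 2.6% at Day 3. Esm1 stayed at or below 1 CPM in HC, in 1 library of Day 1 with no read. It was called lower at Day 1 (0 to 8 reads a library) and Day 3 (2 to 8 reads). Without the library with no read, HC Day 1 replicate 4, the Day 1 value was -1.20 (adjusted p = 0.0744). That call also ended without HC Day 0 replicate 2, 3 or 4. With limma on the TPM scale both calls ended, at -0.08 (adjusted p = 0.193) and -0.09 (adjusted p = 0.133).

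The change from Day 0 in EC was then tested against the mean change in the other 3 cell types. This test called 2 of the 8 genes at Day 1 beside 4.42% of all genes, 7 at Day 3 beside 16.5%, 4 at Day 7 beside 6.21%, 0 at Day 14 beside 2.87% and 4 at Day 28 beside 13.0%. In each call the change in EC was above that mean, though not always above the change in each other cell type. For the count of 0 at Day 14 from edgeR, 2 of the 8 passed an unadjusted p under 0.05 and limma on TPM called 6, where it called 42% of all genes and moved their median by 0.33. Of the 17 calls, 4 remained without replicate 1 of every group and 5 without the 8 libraries of the shared set, while limma on TPM made 27. The calls at Day 3 that held when replicate 1, 2, 3 or 4 of every group was left out were those of Plvap (1.45 ± 0.33 (adjusted p = 0.00109)), Aplnr (1.43 ± 0.29 (adjusted p = 0.000243)), Tek (1.31 ± 0.22 (adjusted p = 8.98e-06)) and Tie1 (1.01 ± 0.24 (adjusted p = 0.00207)). For Tek and Tie1 the difference lay in the other cell types, since Tek had log2 fold changes of -0.12 in EC, -1.57 in FB, 0.13 in CM and -2.83 in HC at Day 3, and Tie1 0.04, 0.03, -0.17 and -2.69. For Plvap the Day 3 values were 2.75 in EC, 2.75 in CM, 1.87 in FB and -0.63 in HC, of which HC alone was below 0. For Apln, mean CPM at Day 3 relative to Day 0 was 3.27 in EC, 14.1 in FB, 1.07 in CM and 0.288 in HC. For Esm1 these ratios were 2.54 in EC, 2.01 in FB, 2.57 in CM and 0.213 in HC. Neither gene had its largest ratio in EC.

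Genes that work with these 8 were followed in EC as lists. Their counts are to be read beside the 19.0% of all genes called at Day 1, 45.5% at Day 3, 37.6% at Day 7, 27.0% at Day 14 and 33.7% at Day 28. All 21 further tip cell genes were tested. Of the calls among them, Day 1 had 4 higher with 2 lower, Day 3 had 12 with 2, Day 7 had 10 with 3, Day 14 had 5 with 0, and Day 28 had 5 with 0. Their median log2 fold change at Day 3 was 0.73, beside -0.03 over all genes tested. The highest call at Day 3 was Pgf, a growth factor of the vascular endothelial growth factor family, at 2.24 ± 0.23 (adjusted p = 1.92e-07). The lowest was Kdr, the gene of the main receptor of vascular endothelial growth factor itself and one of the EC markers, at -0.84 ± 0.13 (adjusted p = 1.64e-05). Nrp1, a co-receptor, was the other gene of the list that fell at Day 3, and Dll4, the Notch ligand of tip cells, had -0.10 ± 0.13 (adjusted p = 0.542), which did not pass. These 2 were named for their roles after their values were seen.

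Of 10 genes around apelin signalling, 9 were tested, and the list moved in both directions. Of its calls, again beside 19.0% of all genes at Day 1 and 45.5% at Day 3, Day 1 had 2 higher with 2 lower, Day 3 had 3 with 3, Day 7 had 3 with 2, Day 14 had 2 with 1, and Day 28 had 2 with 2. Its median at Day 3 was 0.10. The highest at Day 3 was Arrb1, which encodes a beta-arrestin, at 1.51 ± 0.17 (adjusted p = 3.13e-07), and the lowest was Pcsk1, a prohormone convertase gene, at -1.88 ± 0.30 (adjusted p = 3.29e-05). Of 14 genes around the angiopoietin receptors, 12 were tested, and among them Day 1 had 4 higher with 1 lower, Day 3 had 6 with 1, Day 7 had 3 with 2, Day 14 had 4 with 1, and Day 28 had 5 with 1. Their median at Day 3 was 0.30. Itga5, an integrin subunit gene, was highest at Day 3 (2.07 ± 0.25 (adjusted p = 1.29e-06)), and Ptprb, the phosphatase that acts on TIE2, was lowest (-0.39 ± 0.10 (adjusted p = 0.00247)).

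The 8 genes of caveolae, the structures in which the Plvap product sits, moved in both directions. Among their calls, with 19.0% of all genes called at Day 1 and 45.5% at Day 3, Day 1 had 0 higher with 2 lower, Day 3 had 3 with 2, Day 7 had 0 with 3, Day 14 had 1 with 1, and Day 28 had 1 with 3, and the median log2 fold change at Day 3 was 0.06. Cavin3 was the highest at Day 3, at 1.11 ± 0.17 (adjusted p = 2.04e-05), and Cavin2 the lowest, at -1.08 ± 0.13 (adjusted p = 7.44e-07), both of them genes of the caveolar coat.

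Across the 24 EC libraries, each gene was compared with 10500 others by Pearson's r of log2(CPM + 0.5), as a description in which all points share the course of the days and the scaling. Plvap was most like Tnc (r = 0.970), Myof (0.955) and Fkbp10 (0.947), of which Tnc encodes the matrix protein tenascin C. Esm1 was most like Col15a1 (0.952), a collagen gene of basement membranes, followed by Rassf2 and Itga9 (both 0.939), and Aplnr was most like Plxnd1 (0.939), a semaphorin receptor gene, Arl4c (0.926) and Gusb (0.919). Angpt2 was most like Tubb6 (0.928), Mthfd1l (0.918) and Rai14 (0.915), and Apln most like Fkbp1a (0.907), Kit (0.889) and Heatr1 (0.879). Tek stood nearest to Tanc1 (0.875), Podxl (0.867) and Unc13b (0.864), and Tie1 to Fgd5 (0.858), Shroom4 (0.855) and Dnm2 (0.852). Angpt1, compared with 10517 genes in FB, where its mean TPM was highest, was most like Sema3c (0.974), Naalad2 (0.966) and Zfp945 (0.961). Among the 8 genes themselves, the closest in EC were Aplnr and Esm1 (r = 0.880), both of them low at Day 1.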

How the data were processed

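Per the labels and the methods of the study, the authors used Trim Galore for trimming, STAR 2.28 for alignment to mm10 and Salmon for quantification. The deposited files give an estimated count (expected count) and a TPM value, per transcript in 56 libraries (CM, EC, and HC of Day 1 and Day 7) and per gene in 40. Transcript values were summed to genes with the GENCODE M21 annotation, and at most 0.363% of the reads of a library had no gene. In HC and between cell types, 162 genes whose length differed between the kinds of file were left out, none of them among the 8.

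Estimated counts were rounded and tested in R 4.3.3 with edgeR 4.0.16 (TMM, filterByExpr, robust quasi-likelihood fit), with 24 libraries of a cell type or all 96 in a fit. The Benjamini-Hochberg adjustment ran over all 14535 (CM), 18144 (EC), 18658 (FB), 18857 (HC) or 21998 (all cell types) genes, and calls were made under 0.05. All adjusted p-values are edgeR's unless limma is named. A value after ± is a standard error for a log2 fold change (its size divided by the root of F) and an SD for a level.

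The fit was tested on simulated data: for EC Day 3 against Day 0 it called 30% of 100 genes changed by 1 on the log2 scale and 100% of 100 changed by 2. Every simulated gene had the same spread and no other gene was changed. The EC libraries differ in both, so the 30% is not the share that the fit recovers in them. Alternatives were edgeR's RLE size factors, no filter on low counts, DESeq2 1.42.0 (within cell types), limma 3.58.1 on log2(TPM + 1), a replicate block, leaving out the 8 libraries of the shared set, and leaving out each library in turn. Fits between cell types left out replicate 1, 2, 3 or 4 of every group instead. Genes were named by a rule: the 8 genes, the called gene with the highest and that with the lowest log2 fold change of each list at EC Day 3, and the 3 genes most alike among those with a mean of at least 5 CPM. The 8 genes and the lists were chosen with earlier results of these data known. Since the replicates are described as biological and also as technical, the tests gauge the variation among pools, part of which may be technical. Day comparisons of a cell type share their Day 0 libraries.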

Additional observations from a re-analysis of the deposited data

Results flagged for a closer look

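Dixon's test at 95% was run on each of 192 groups of 4 libraries (8 genes in 24 groups) and set 1 library apart in 6 of them, where chance gives about 1 in 20. Angpt1 in FB at Day 0 had 47.97 CPM in replicate 1, against 56.3 to 57.9 in the others. Tek in HC at Day 1 had 8.776 CPM in replicate 4, against 17.0 to 18.5, and in the same library Esm1 had 0 CPM, against 0.302 to 0.359. Esm1 in EC at Day 7 had 22.05 CPM in replicate 2, against 13.2 to 14.3. Aplnr in FB at Day 7 had 9.666 CPM in replicate 3, against 14.7 to 15.7. Apln in CM at Day 28 had 0.7542 CPM in replicate 3, against 2.57 to 2.82.

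The change from Day 0 differed between EC and the mean of the other cell types for 7 genes, by the interaction in the fit of 96 libraries, and every difference below is the log2 change in EC minus that mean. For Apln it was 1.046 at Day 3, 1.095 at Day 7 and 1.231 at Day 28, and for Aplnr 1.434, 1.118 and 1.155 on those days. Tek had 0.9019 at Day 1, 1.305 at Day 3, 0.6849 at Day 7 and 0.7907 at Day 28, and Tie1 1.005 at Day 3 and 0.8609 at Day 28. Plvap had 1.449 at Day 3 and 1.13 at Day 7, Angpt2 0.9354 at Day 1 and 0.8933 at Day 3, and Esm1 1.25 at Day 3.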

How the results depend on the processing

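Limma on log2(TPM + 1) made 26 calls in EC in place of 19, 8 in FB in place of 18, 14 in HC in place of 27 and 27 for the change in EC against the other cell types in place of 17. It moved the median log2 fold change of all genes from -0.70 (FB Day 3) to 0.51 (EC Day 28), and it turned 6 differences: Aplnr at EC Day 3 (-0.038), Angpt1 at EC Day 28 (0.26), Plvap (0.29) and Angpt2 (0.16) from EC Day 3 to Day 7, and Plvap (-0.55) and Esm1 (-0.025) at FB Day 3. Without the 8 libraries of the shared set, 5 of the 17 calls between cell types remained. Leaving out 1 library at a time gave 6 to 9 calls in CM (9 with all), 14 to 23 in EC (19), 17 to 20 in FB (18), 23 to 28 in HC (27) and 4 to 7 between neighbouring days of EC (6). Leaving out 1 replicate number gave 7 for EC against the other cell types (7) and 4 to 17 for the change in EC (17), the lowest without replicate 1. Of 103 calls, 46 held under every alternative and every library left out. DESeq2 ended 0 of 79 calls, RLE size factors 3 of 103, no filter 15 of 103 and the TPM scale 42 of 103.

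With the replicate block, 6 of 103 calls ended and the counts were 8 in CM, 17 in EC, 17 in FB, 27 in HC, 6 between neighbouring days of EC, 7 for EC against the other types and 15 for the change in EC. The numbers were not taken as pairs: every same-numbered pair deviated together (correlation over 0.1) in 2 of 20 comparisons between days and in 0 of 18 between EC and another cell type of the same day.

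Depth limits Esm1, with at most 0.553 CPM in CM and 1 CPM in HC, and the self-test recovered 30% of changes of 1 on the log2 scale in EC, so a gene that did not pass is not shown to be unchanged.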
